A study of Mus musculus with 11 samples.

Results

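The genes described here are 10 of mouse chromosome 7: Kcnj14, Klk1b22, Lrrc4b, Bcat2, Ush1c, Gabrg3, Igsf23, Trappc6a, Slc1a5 and Gm5900. They are 10 of the 35584 genes in the deposited count table, and all 10 were among the 13884 genes abundant enough to test. They were selected on the difference between LXR-DKO and WT hearts, so their values in that comparison are given as a description, with no test. Whether their distance from the targeted gene Nr1h2 also played a part in the choice is not known, so their positions are a description too. Their neighbours, their sequences and their levels in the hearts of the other groups are not known to have been used.

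PolyA RNA of whole hearts was sequenced in 11 libraries, all from male mice between 8 and 12 weeks of age. WT mice (n = 3) received diphtheria toxin at 0.01 µg per g of body weight, 3 times a week for 3 weeks. Macrophage-depleted mice (n = 3) received the same toxin and carried CD169-DTR, the toxin's receptor placed under control of the gene for CD169, a surface protein of resident macrophages, and their macrophages had been depleted for 21 days. Mertk-KO mice (n = 2) lacked Mertk, a receptor with which macrophages take up dying cells, and LXR-DKO mice (n = 3) lacked both liver X receptors. Whether Mertk-KO and LXR-DKO mice received toxin is not given in the labels, so genotype and toxin cannot be told apart in a comparison of either with WT. Neither strain nor breeding is given, so loss of the receptors and any other genetic difference between LXR-DKO mice and the rest cannot be told apart either. Separate mice behind the libraries of a group are not stated, so the p-values measure only how far these libraries spread, and part of that may be technical.

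Liver X receptors alpha (Nr1h3, on chromosome 2) and beta (Nr1h2, on chromosome 7) are nuclear receptors that bind oxidised cholesterol. With their partner RXR they sit on DNA at repeats of the motif AGGTCA and switch on genes of cholesterol export and fatty acid synthesis. In the heart, as elsewhere, resident macrophages are cells in which they are well known to act. The 10 genes belong to other processes: ion channels, amino acid handling, adhesion and scaffold proteins, vesicle transport, a protease and a pseudogene.

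Libraries held 10938600 to 20722295 estimated reads. A floor of 3 reads, taken as the upper limit for a count of 0, was worth 2.12 to 4.22 normalised counts. That floor and all intervals on reads cover counting error only, since amplified reads are not independent molecules. WT libraries held 543, 525 and 525 normalised counts of Nr1h2 and LXR-DKO libraries 85.2, 91.7 and 99.6, a fall of log2 fold change -2.52 (SE 0.09, limma adjusted p = 3.25e-08). Nr1h3 fell by 2.50 on the same scale (SE 0.12, limma adjusted p = 6.01e-07). In the TPM table, which is per length, the drop was smaller: Nr1h2 averaged 29.8 ± 3.33 in WT and 17.6 ± 1.70 in LXR-DKO (SD, n = 3 each), and Nr1h3 averaged 9.57 ± 0.934 and 6.54 ± 0.737, a difference that did not pass the test there (limma adjusted p = 0.325, the highest of the 22 alternative fits). Heart identity was clear from the summed cardiomyocyte markers, 772183 to 842055 normalised counts in WT and 848021 to 872535 in LXR-DKO.

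The sequence of Gm5900 is shown first, because it decides which reads can be given to this gene. Gm5900 is annotated as a processed pseudogene of 375 bases at chr7:104949915-104950289, minus strand (GRCm38), a copy of the messenger RNA of Lamtor3, which encodes a scaffold subunit of the Ragulator complex on lysosomes and lies on chromosome 3. Aligned with the 375 coding bases of Lamtor3, Gm5900 is 99.5% identical and differs at 2 bases, C111T and G336A, with the Lamtor3 base first and positions counted from the A of its start codon. Both stretches follow, read 5′ to 3′ in the coding direction, with the differing base in capitals.
Lamtor3 around position 111: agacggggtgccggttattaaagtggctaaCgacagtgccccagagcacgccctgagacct
Gm5900 around position 111: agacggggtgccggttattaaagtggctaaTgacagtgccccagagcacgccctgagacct
Lamtor3 around position 336: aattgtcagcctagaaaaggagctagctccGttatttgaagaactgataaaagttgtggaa
Gm5900 around position 336: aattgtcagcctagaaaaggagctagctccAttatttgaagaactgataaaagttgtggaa
Of the 326 windows of 50 bases in Gm5900, 236 (72.4%) occur letter for letter in Lamtor3, so that most of its length cannot be told from Lamtor3 by a read of that length. Within this coding stretch, only reads over the capitals above tell them apart.

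The motif AGGTCA was searched near the starts of the genes. RefSeq start regions (250 bases before to 50 after the start, GRCm38.p6) were found for 7 of the 10 genes, 9 regions in all. AGGTCA, searched on both strands, was present in 2 of these 9, while 5340 of all 32851 such regions (16.3%) hold it. No enrichment is read from 2 of 9. The direct repeat of AGGTCA with 4 bases between the copies, the usual site of the receptors, was in none of the 9 and in 5 of all regions (0.0152%). Both regions that hold the motif are printed with it in capitals, in the direction of the gene, where it reads as its reverse complement TGACCT. Klk1b22 holds it once and Igsf23 holds it 2 times, but not with 4 bases between the copies.
Klk1b22, chr7:44112423-44112722, plus strand: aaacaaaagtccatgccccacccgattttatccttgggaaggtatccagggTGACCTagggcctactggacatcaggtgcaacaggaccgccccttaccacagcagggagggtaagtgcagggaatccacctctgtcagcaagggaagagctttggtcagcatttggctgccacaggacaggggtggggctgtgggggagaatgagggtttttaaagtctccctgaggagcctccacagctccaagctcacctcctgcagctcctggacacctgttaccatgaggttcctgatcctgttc
Igsf23, chr7:19950694-19950993, minus strand: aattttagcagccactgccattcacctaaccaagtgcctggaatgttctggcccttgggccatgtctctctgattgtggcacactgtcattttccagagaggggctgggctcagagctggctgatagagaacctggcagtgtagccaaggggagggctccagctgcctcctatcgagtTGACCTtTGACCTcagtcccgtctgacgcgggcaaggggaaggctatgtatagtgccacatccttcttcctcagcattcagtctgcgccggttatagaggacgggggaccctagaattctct
These matches are letters in a window and are no measurement of binding.

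In LXR-DKO hearts 9 of the genes were higher and Slc1a5 was lower. All 3 LXR-DKO libraries lay above all 8 others for those 9, and below all 8 for Slc1a5. Among all genes tested, 1.57% were placed above in this way and 1.25% below. The choice of the genes used this comparison, in which 0.418% of all tested genes were called (58 genes: 30 higher and 28 lower). In whole-heart RNA, more cells of a type and more RNA per cell cannot be told apart.

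**Figure D1:**
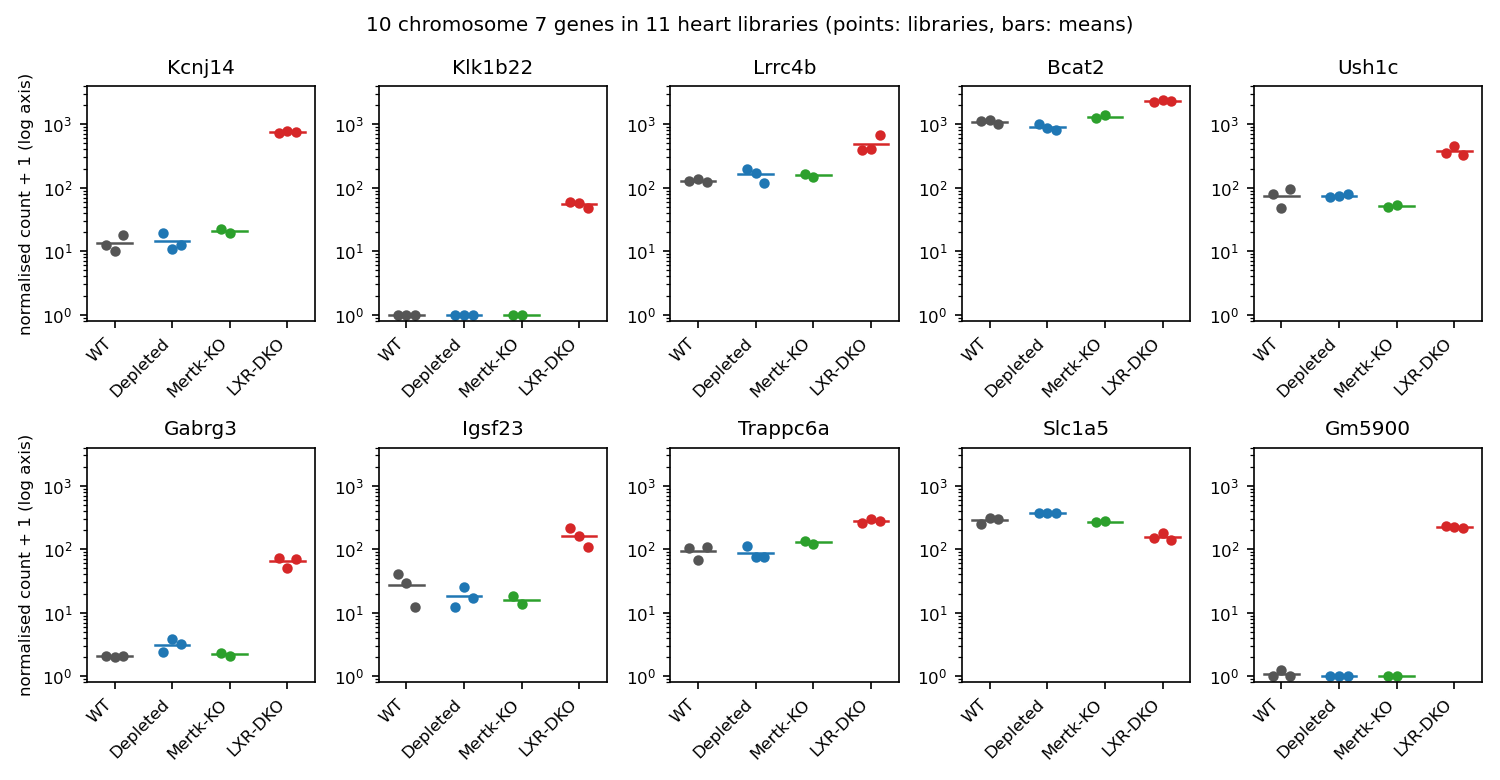
Normalised count plus 1 on a log axis for the 10 genes, with 1 point per library and a bar at each group's mean. LXR-DKO libraries stand above the other 8 in 9 panels and below them in the Slc1a5 panel, and Klk1b22 has 0 reads in all 8.

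The ion channel genes were nearly silent outside LXR-DKO. Kcnj14 encodes an inward rectifier potassium channel, a pore that helps to set the resting potential of a cell. Its normalised counts were 11.7, 9.21 and 16.8 in WT and 739, 773 and 766 in LXR-DKO. Depleted hearts had 18.3, 9.90 and 11.5, and Mertk-KO hearts 21.2 and 18.3, so the 8 libraries without the LXR deletions all stayed at or below 21.2. The fitted log2 fold change of LXR-DKO against WT was 5.85 (SE 0.25), and the ratio of estimated reads was 60.5 (95% counting interval 43.6 to 86.6, exact).

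Per length, Kcnj14 went from 0.423 ± 0.152 TPM in WT to 22.3 ± 0.951 in LXR-DKO (SD, n = 3 each), a log2 ratio of means of 5.72. In LXR-DKO it thus lay beside Kcnj5 at 21.7 and Kcnj3 at 24.0 TPM, subunits of the acetylcholine-gated channel of the heart. None of the 7 other tested Kcnj genes was called, with 1 at an unadjusted p below 0.05 and 0 with voom weights, and their median log2 fold change was -0.11 against 0.00 over all genes. The 1 at an unadjusted p was Kcnj11, the pore of the ATP-sensitive channel, which lies 1.55 Mb from Nr1h2 and had a log2 fold change of -0.72 (SE 0.16, limma adjusted p = 0.103). Part of the Kcnj14 sequence is not its own: 822 of the 2632 windows of 50 bases in its transcript (31.2%) occur in Gm5522, a processed pseudogene on chromosome 1. Gm5522 was listed in the TPM table at 0 in all 8 libraries of the other groups and at 1.29, 0.913 and 1.55 in LXR-DKO, far under Kcnj14 itself.

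Gabrg3 encodes the gamma-3 subunit of the GABA-A receptor, the chloride channel opened by the transmitter GABA. Each WT library held 1 read, depleted libraries 1.02 to 4 and Mertk-KO libraries 1 each, whereas LXR-DKO libraries held 76, 41 and 71. The 3 libraries of LXR-DKO together held 188 reads against 3 in WT, a ratio of 61.4 with an exact 95% counting interval of 20.7 to 300.2. Even so its level stayed low, at 0.558 ± 0.126 TPM in LXR-DKO (SD, n = 3), under that of Gabra3 at 0.879 and Gabrr2 at 1.03 TPM and above Gabre at 0.343. Gabra3, Gabrr2 and Gabre were the only other subunits abundant enough to test, and none was called (0 at an unadjusted p below 0.05 and 0 with voom weights). Gabrg3 overlaps 6 predicted genes, but 0 of the 9718 windows of 50 bases in its transcript occur in a transcript of any other gene.

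Of the genes of amino acid handling, Bcat2 was higher and Slc1a5 lower. Bcat2, the mitochondrial aminotransferase that takes the first step in the breakdown of leucine, isoleucine and valine, was the most abundant of the 10. Its normalised counts were 1136, 1144 and 1019 in WT and 2229, 2402 and 2288 in LXR-DKO. The log2 fold change was 1.07 (SE 0.09), a ratio of means of 2.10, and per length it went from 69.6 ± 4.07 to 149 ± 6.92 TPM (SD, n = 3 each). Libraries within each group lay close together and the groups did not overlap. Of 23 other tested genes of branched-chain amino acid breakdown none was called, with 4 at an unadjusted p below 0.05 and 0 with voom weights, and their median log2 fold change was 0.02. Bckdha, a subunit of the next enzyme of the pathway and also on chromosome 7, had a log2 fold change of 0.14 (SE 0.12). An antisense gene, 0610005C13Rik, shares 149 of 2032 windows with Bcat2. No source used here says whether the counting used strand, so that reads from these windows cannot be told apart.

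Slc1a5 encodes a transporter that brings glutamine and other neutral amino acids into cells. Its level was 249, 311 and 295 normalised counts over the WT libraries, compared with 148, 179 and 141 in LXR-DKO, a log2 fold change of -0.87 (SE 0.11). Depleted hearts had the most, 372, 368 and 371, and Mertk-KO hearts had 264 and 276. The lowest library outside LXR-DKO, WT replicate 1, still lay above the highest LXR-DKO library. In the TPM table the means were 12.0 ± 1.89 in WT and 8.24 ± 1.38 in LXR-DKO (SD, n = 3 each), a log2 ratio of -0.54.

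Lrrc4b and Igsf23 encode cell surface proteins. Lrrc4b is a synaptic adhesion protein that binds receptor phosphatases of the LAR family. Its WT libraries held 127, 136 and 123 normalised counts and its LXR-DKO libraries 385, 403 and 669, a log2 fold change of 1.86 (SE 0.21). The other 5 libraries ranged from 119 to 196. LXR-DKO replicate 3 lay well above its own group, and over the 22 alternatives, that without it included, the log2 fold change ranged from 1.61 to 2.01. Of 6 other tested genes of its list, related adhesion proteins and receptor phosphatases, none was called (1 at an unadjusted p below 0.05, 0 with voom weights).

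Igsf23, of the immunoglobulin superfamily, varied from library to library, with 39.3, 28.7 and 11.1 normalised counts in WT, compared with 216, 163 and 105 in LXR-DKO. Its libraries spread widely within both groups, and it had a log2 fold change of 2.67 (SE 0.43). Other libraries held 11.2 to 24.7, so the groups remained apart. The 6 other tested Igsf genes had a median of -0.01 and none was called (0 at an unadjusted p below 0.05, 0 with voom weights). The predicted gene Gm44651 overlaps Igsf23 on the same strand, and 0 of the 1859 windows of Igsf23 recur in another gene.

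Ush1c encodes harmonin, a scaffold protein best known from the hair bundles of the inner ear, and mutated in Usher syndrome. LXR-DKO libraries held 354, 453 and 323 normalised counts, and WT libraries 79.7, 46.1 and 93.3, a log2 fold change of 2.40 (SE 0.22). The log2 ratio of its mean TPM values was 2.20. The lowest LXR-DKO library stood at 323 and the highest of all others at 93.3. Its partners Cdh23, Myo7a and Whrn were abundant enough to test and had log2 fold changes of -0.19, -0.34 and -0.10, none called (0 at an unadjusted p below 0.05, 0 with voom weights). Gm9860, which overlaps Ush1c on the other strand, shares 73 of its 3023 windows.

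Trappc6a is a subunit of TRAPP, the complex that tethers vesicles on their way through the Golgi. Counts went from 105, 65.5 and 108 over the WT libraries to 255, 293 and 274 over those of LXR-DKO (normalised), a log2 fold change of 1.58 (SE 0.21). Mertk-KO libraries, at 135 and 120, came nearest to LXR-DKO without reaching it. The 13 other tested TRAPP genes had a median log2 fold change of 0.01, and none was called (2 at an unadjusted p below 0.05, 0 with voom weights). With 0.418% of all genes tested called, a count of 0 would be usual for any 13 genes. Trappc6b, the closest relative of Trappc6a, had -0.01 (SE 0.10).

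Klk1b22 encodes a glandular kallikrein, a secreted serine protease of the salivary gland family. It had 0 reads in each of the 8 libraries outside LXR-DKO, and 64.0, 46.0 and 48.0 estimated reads in the LXR-DKO libraries, or 59.3, 55.5 and 46.9 normalised counts. Set against the floor of 3 reads over the WT group, its LXR-DKO reads were 51.6-fold more, scaled for library size. The counting error of the LXR-DKO reads is not in that figure. The 13 related genes Klk1 and Klk1b are 85.4% to 89.2% identical to it, and 107 of its 806 windows of 50 bases (13.3%) recur in another gene, 42 of them in Klk1b16. Klk1b16 and Klk1b21, the latter its closest relative at 89.2% identity, had 0 reads in all libraries. Klk1b26 had 28.0 reads over the LXR-DKO libraries and 27 over the 8 others. Its mean normalised count was 9.04 in LXR-DKO and 1.06 in WT, too low to test. Of the glandular markers, Smr3a and Bpifa2 were at 0 in all 11 libraries. Klk1 had 7 reads in all, 5 of them in LXR-DKO. The other glandular marker, the amylase Amy1, averaged 124 normalised counts in WT and 104 in LXR-DKO and was not called (limma adjusted p = 0.623).

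Gm5900 had 253, 185 and 219 estimated reads in the LXR-DKO libraries. Outside them its sole signal was 0.24 of a read in WT replicate 2. Set against the floor of 3 reads over the WT group, the LXR-DKO reads given to it were 214-fold more, scaled for library size. That figure does not cover how reads shared with Lamtor3 were assigned, so it is no lower bound for the gene. Reads given to Lamtor3 were fewer in LXR-DKO, at 523, 550 and 557 normalised counts against 681, 662 and 703 in WT, a log2 fold change of -0.33 (SE 0.07) that did not pass the test (limma adjusted p = 0.125, range 0.00785 to 0.838 over 22 alternatives). Added together, Lamtor3 and Gm5900 came to 767 ± 8.90 in LXR-DKO and 682 ± 20.4 in WT (SD, n = 3 each), and Gm5900 took 30.9%, 28.9% and 27.7% of that sum in the 3 LXR-DKO libraries. In these counts the share was nearly the same in each, which the TPM table did not bear out. There Gm5900 was unsteady, at 4.80, 1.41 and 11.8, while Lamtor3 was level at 53.5 ± 0.290 in WT and 52.1 ± 1.02 in LXR-DKO. Klk1b22, which is longer (855 bases), averaged 5.92 TPM in LXR-DKO from 53.9 normalised counts. Gm5900 averaged 6.01 TPM from 224 normalised counts, so the tables disagree on its level. Whether the reads came from Gm5900, or from a Lamtor3 that carries the letters of Gm5900, was not tested. On chromosome 3, where Lamtor3 starts at base 137918506, 7 of 709 tested genes (0.987%) were called in LXR-DKO against WT, beside 0.418% of all genes tested. Their starts lay between bases 107467543 and 135485611, a stretch read off after the calls were seen. Its bearing on the reads given to Gm5900 was not tested.

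**Figure D2:**
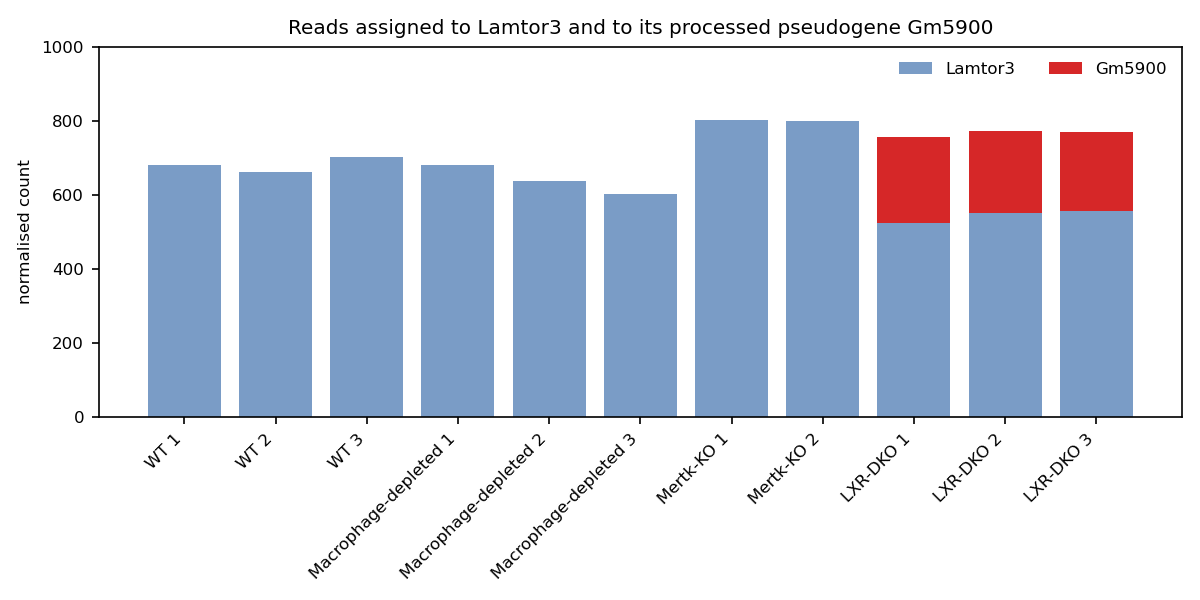
Stacked normalised counts of Lamtor3 (blue) and of its processed pseudogene Gm5900 (red) in each of the 11 libraries. By these counts Gm5900 takes 27.7% to 30.9% of the sum in LXR-DKO, a share that its TPM values do not show. It is at or near 0 in all other libraries.

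All 10 were chosen as genes of chromosome 7, and whether distance from Nr1h2 played a part is not known, so the distances are a description. Of the 10, 5 start within 2 Mb of Nr1h2 (chr7:44549616-44553951, minus strand, GRCm38). That stretch holds 93 of the 1096 tested genes of the chromosome, Nr1h2 included. Lrrc4b starts 125 kb from it and Klk1b22 441 kb from it, both on the side of lower coordinates. Bcat2, Kcnj14 and Ush1c start 1.02, 1.27 and 1.68 Mb away on the side of higher coordinates. Igsf23, Trappc6a and Slc1a5 form a distant set, 24.6, 25.0 and 27.8 Mb away on the lower side. Gabrg3 starts 12.8 Mb and Gm5900 60.4 Mb away on the higher side.

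Counted over the whole chromosome, 20 of 1096 tested genes were called in LXR-DKO against WT, the 10 described and Nr1h2 among them. Leaving those 11 out, 9 of 1085 were called (0.829%), compared with 38 of 12788 (0.297%) on all other chromosomes. Without the 11, between 20 and 30 Mb below Nr1h2 2 of 90 genes were called, and within 2 Mb of it 1 of 87. In between, from 5 to 20 Mb below, none of 183 was called (17 at an unadjusted p below 0.05, 0 with voom weights). Farther off, from 30 to 45 Mb below, none of 87 was called (19 at an unadjusted p below 0.05, 0 with voom weights). From 2 to 5 Mb none was called, of 7 genes below and 14 above (0 and 2 at an unadjusted p below 0.05). Over all genes tested, 1601 of 13884 had an unadjusted p below 0.05. Above Nr1h2, 1 of 68 was called from 5 to 30 Mb, 4 of 86 from 30 to 45 Mb, and 1 of 463 beyond 45 Mb.

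**Figure D3:**
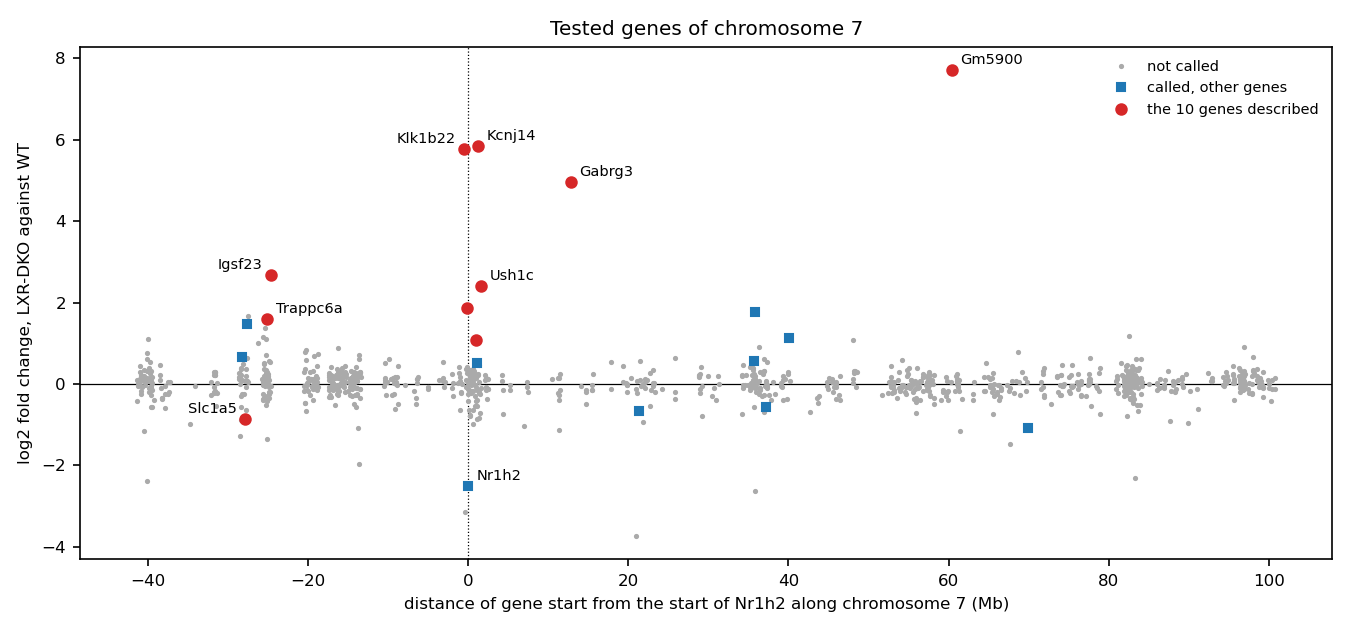
Log2 fold change of LXR-DKO against WT for the 1096 tested genes of chromosome 7, by the distance of each gene's start from that of Nr1h2 in Mb. Red circles are the 10 genes described, blue squares other called genes and grey points genes not called; the fitted heights of Klk1b22, Gabrg3 and Gm5900 depend on the 1 added to each count, because WT is at or near 0.

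Around Nr1h2 most genes did not pass the threshold. Of 108 tested genes within 5 Mb of Nr1h2 that are neither among the 10 nor Nr1h2 itself, 1 was called (0.926%), and their median log2 fold change was 0.03. At an unadjusted p below 0.05 there were 26 of the 108, compared with 1601 of all 13884. The called gene was Rpl18, a ribosomal protein of the large subunit, at 2511 ± 197 normalised counts in LXR-DKO and 1749 ± 32.2 in WT (SD, n = 3 each; log2 fold change 0.52, SE 0.09, limma adjusted p = 0.0298). Its libraries overlapped with those of other groups, which reached 2634, and it missed the threshold in 9 of 22 alternatives, with adjusted p from 0.00251 to 0.177. The alternatives in which it missed include leaving out any single one of the WT or LXR-DKO libraries or Macrophage-depleted replicate 3.

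**Figure D4:**
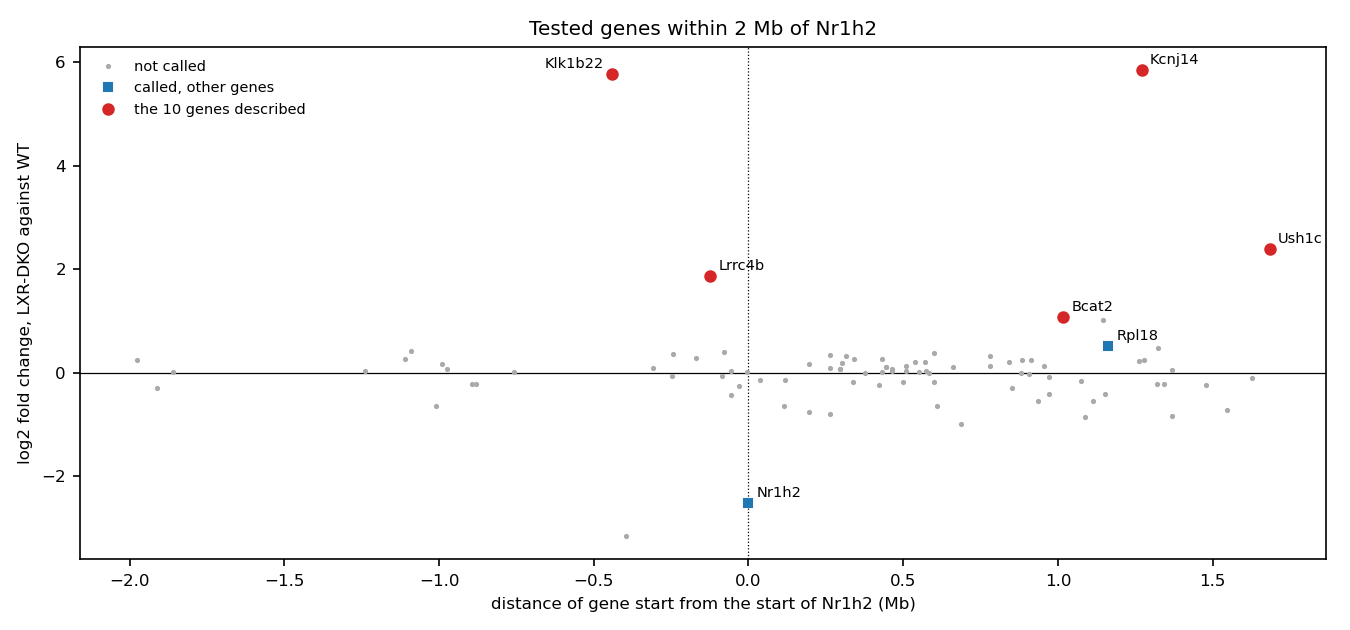
The same log2 fold changes for tested genes within 2 Mb of Nr1h2. The 5 genes described (red) and Nr1h2 stand apart from neighbours, most of which lie close to 0; Rpl18 is the blue square labelled beside Bcat2.

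The nearest tested gene on each side of each of the 10, by start position, gives 20 neighbours. None of the 20 was called (3 at an unadjusted p below 0.05, 0 with voom weights), beside 0.418% of all genes tested. A count of 0 would thus be usual for any 20 genes. Some of these neighbours lie far off. Zfp180 starts 4.13 Mb from Igsf23, and Herc2 and Atp10a start 1.34 and 1.27 Mb from Gabrg3. In 19 of the 20 the log2 fold change was below 0.5 in size, and the median of the 20 was -0.02. Beside Kcnj14, which differed by 5.85, Cyth2 starts 10.2 kb away and had 0.23 (SE 0.10), and Grwd1 starts 6.16 kb away and had 0.25 (SE 0.12). Bloc1s3 starts 0.028 kb from Trappc6a and had 0.30 (SE 0.19). Ap2s1 and Strn4 on the sides of Slc1a5 had 0.06 and 0.07. The exception was Gm45136 beside Klk1b22, with a log2 fold change of -3.15 and a wide error (SE 1.21, limma adjusted p = 0.371). Among genes too low to test within 5 Mb of Nr1h2, Fam83e had 23, 19 and 22 reads in the LXR-DKO libraries and 1 to 9 in the other 8. It was found by its values, so this is a description only.

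The other 8 called genes of chromosome 7 lay more than 5 Mb from Nr1h2, among 977 tested there (0.819%), and are named here after their values were seen. Hddc3 had the greatest change of them, a log2 fold change of 1.77 (SE 0.25, limma adjusted p = 0.00547), at 264 ± 85.3 normalised counts in LXR-DKO and 74.0 ± 4.40 in WT (SD, n = 3 each). The smallest change among the 10 genes described was that of Slc1a5, so the 10 are not simply the greatest changes of the chromosome. Pnmal2, near Slc1a5, had 1.47 (SE 0.16) and Sae1, a subunit of the SUMO-activating enzyme on the other side of Slc1a5, had 0.67 (SE 0.09). Fah, the last enzyme of tyrosine breakdown, had 1.13 (SE 0.19), and Ngrn, near Hddc3, had 0.56 (SE 0.10). Lower in LXR-DKO were Pde3b, a phosphodiesterase that breaks down cyclic AMP (-1.09, SE 0.20), Pcsk6, a protease that matures secreted proteins (-0.66, SE 0.11), and Homer2, a synaptic scaffold (-0.57, SE 0.09). Sae1 and Pnmal2 were called in all 22 alternatives and Hddc3 in 21, whereas Pde3b and Ngrn missed the threshold in 10 of 22, with adjusted p up to 0.251 and 0.185. Pcsk6, Homer2 and Fah missed it in 5, 6 and 6 of the 22.

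For each of the 10, the gene whose log2 value had the highest Pearson correlation with it was found among all tested genes, and in 7 of 10 cases that gene was on chromosome 7. In 5 of those 7 it was itself one of the 10, and 1096 of the 13884 genes tested are on this chromosome. Klk1b22 and Gm5900 were each other's closest (r = 0.999), Kcnj14 and Gabrg3 were closest to Klk1b22 (0.990 and 0.989) and Trappc6a to Kcnj14 (0.953). Lrrc4b went with Pnmal2 (0.955) and Bcat2 with Sae1 (0.959). The others went with genes elsewhere: Ush1c with Gm10093 (0.966), Igsf23 with Enpep (0.963) and Slc1a5 with Apod (0.933). These coefficients over 11 libraries mostly restate the contrast between LXR-DKO and the rest, on which the genes were chosen. The 10 were also chosen from chromosome 7, so the 5 matches within the 10 lie on it by the choice. No enrichment is read from the 7.

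The comparison of Mertk-KO with Macrophage-depleted hearts has in its means no library that chose the genes, although the model takes its spread from all 4 groups. There 2 of the 10 were called, beside 21.0% of all genes tested, and none was called when only these 2 groups were in the model. Klk1b22, Gm5900 and Gabrg3 passed the filter on low values only through LXR-DKO, with 0, 0 and at most 4 reads in these libraries, so no share is read from this count. Bcat2 was higher in Mertk-KO, at 1263 and 1376 normalised counts against 992, 866 and 823 (log2 fold change 0.56, SE 0.10, limma adjusted p = 0.00452, range 0.00402 to 0.0655 over 22 alternatives, the call being lost only with just these 2 groups in the model). Slc1a5 was lower in Mertk-KO (-0.45, SE 0.13, limma adjusted p = 0.0291, range 0.0139 to 0.184). For both genes the Mertk-KO and depleted libraries did not overlap. The call of Slc1a5 was lost without any one of the 3 Macrophage-depleted libraries (adjusted p = 0.0574, 0.0698 and 0.0692 without replicates 1, 2 and 3) and without Mertk-KO replicate 1 (0.0802). It was also lost with only these 2 groups in the model (0.0802) and with library weights (0.184).

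Kcnj14 differed in that comparison by 0.59 (SE 0.28, limma adjusted p = 0.156), Trappc6a by 0.56 (SE 0.23, 0.0989) and Ush1c by -0.55 (SE 0.25, 0.138). Trappc6a passed without Macrophage-depleted replicate 1 (0.0404) and Ush1c without WT replicate 2 (0.0473), each within a range that reached 0.337 and 0.461. Lrrc4b and Igsf23 had adjusted p of 0.946 and 0.876, and no test is given for Gabrg3, Klk1b22 and Gm5900. Summed macrophage markers were 1848 to 2458 normalised counts in Mertk-KO and 423 to 1312 in depleted hearts; the part of this in the values of Bcat2 and Slc1a5 was not tested.

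Against WT, the 2 groups with intact liver X receptors showed small differences, given without p because the WT libraries also served to choose the genes. Of all genes, 0.238% were called for Macrophage-depleted against WT and 9.27% for Mertk-KO against WT. Leaving out Gabrg3, Klk1b22 and Gm5900, which had too few reads, the greatest log2 differences from WT were -0.48 (SE 0.43) for Igsf23 in depleted hearts and 0.65 (SE 0.28) for Kcnj14 in Mertk-KO. Bcat2 had -0.30 (SE 0.09) and 0.26 (SE 0.10), in that order, and Slc1a5 had 0.38 (SE 0.11) and -0.07 (SE 0.13). None of these came near the changes in LXR-DKO, apart from Slc1a5, whose difference in depleted hearts was of the opposite sign and less than that in LXR-DKO in size. Around Nr1h2, none of the 108 genes was called for Macrophage-depleted (8 at an unadjusted p below 0.05, 0 with voom weights), 6 were called for Mertk-KO, and Mertk-KO against Macrophage-depleted called 18.

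**Figure D5:**
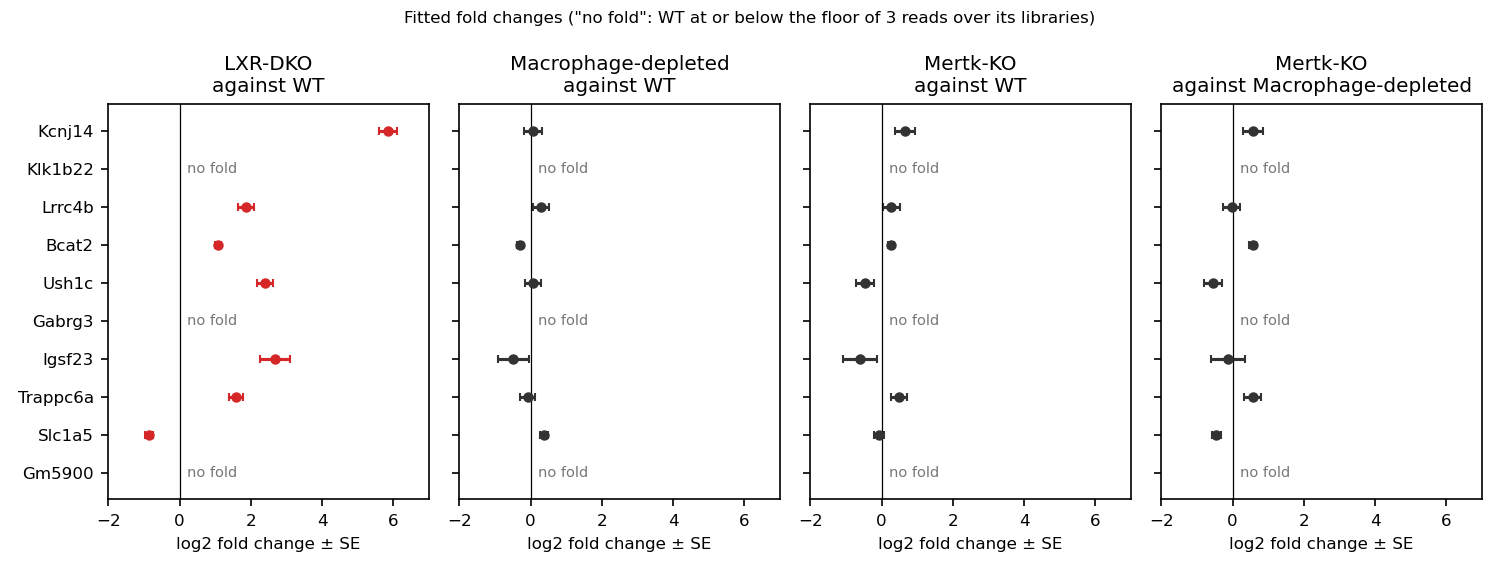
Fitted log2 fold change with its SE for the 10 genes, where one can be given, in 4 comparisons. Changes reach 5.85 for Kcnj14 in LXR-DKO against WT, while in the other 3 comparisons all lie within 0.65 of 0; no fold is drawn for Klk1b22, Gabrg3 and Gm5900, which had 3 reads or fewer over the WT libraries.

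Genes known as targets of the liver X receptors were compared in the same hearts. Of 17 tested, 1 was called, Nr1h3 itself, a deleted gene, and the median log2 fold change of the 17 was -0.07. At an unadjusted p below 0.05 there were 7 of the 17, 3 higher and 4 lower, compared with 1601 of all 13884. The deleted Nr1h3 is counted among the 7, as 1 of the 4 lower. Abca1, the cholesterol exporter, had 0.11 (SE 0.17), Srebf1, the regulator of fatty acid synthesis, -0.59 (SE 0.12, limma adjusted p = 0.0675), and Scd1, a fatty acid desaturase, 1.48 (SE 0.39, limma adjusted p = 0.211). Over the 9 pathway and family lists of the 10 genes, 0 of 74 other tested genes were called (10 at an unadjusted p below 0.05, 0 with voom weights). With 0.418% of all genes tested called, 0 of 74 does not set these lists apart.

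Markers of other cell types were compared alongside. None of the 43 tested markers was called in LXR-DKO against WT (5 at an unadjusted p below 0.05, 0 with voom weights), beside 0.418% of all genes tested. Neural and Schwann markers, of interest because Lrrc4b and Gabrg3 are known from neurons, summed to 178 to 228 normalised counts in WT and 229.8 to 264 in LXR-DKO, without overlap; depleted hearts reached 235. Summed macrophage markers were 1657 to 1853 in WT and 1342 to 1647 in LXR-DKO, also without overlap. The cardiomyocyte sums given above did not overlap either, and were higher in LXR-DKO. The atrial markers were uneven, from 3433 to 25595 in WT and from 1611 to 17491 in LXR-DKO, and adipocyte markers went from 40.9 to 89.1 in WT and from 56.7 to 179.8 in LXR-DKO. The part of these sums in the values of the 10 genes was not tested.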

How the data were processed

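RNA of 11 heart libraries was measured by polyA RNA sequencing, per the labels' protocols with Trizol extraction, an Ovation Single Cell kit (NuGen) and Illumina TruSeq libraries. Tools listed, without roles, in the submitters' processing notes are kallisto 0.43.1, RSEM 1.2.20, cutadapt and CASAVA 1.8.2, with the build GRCm38. Both tables deposited by the authors hold a signal per gene and library: the first a normalised count, read from its values as estimated reads plus 0.5, scaled to an effective library size, the second TPM rescaled between libraries. No source used here states strand use or the annotation release.

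Estimated reads were recovered from the first table (58.9% to 62.3% of low values whole within 0.01 read, so no count model was used), divided by effective size and multiplied by its mean. These normalised counts were tested where they averaged at least 10 (13884 genes), on log2(normalised count + 1), with limma 3.58.1 in R 4.3.3: 4 groups in 1 model with a trended variance, two-sided, Benjamini-Hochberg threshold 0.05 over all genes tested. Fold changes on this scale understate the change of low genes. Called means past that threshold. GENCODE M21 gave positions for 35469 of the 35584 gene IDs. Ratios of reads carry exact 95% intervals.

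The 10 genes and all lists were chosen with earlier results of these data known. Besides the 10, the genes named are Nr1h2 and Nr1h3, list members past the threshold, called genes within 5 Mb of Nr1h2, the nearest tested genes on each side, the gene most alike over the libraries and the called gene outside the 10 with the greatest change. Other names, such as the list members given as examples, were chosen after their values were seen. Alternatives were other filters, pseudocounts, scalings and windows, limma's weights per value from the reads (voom) or per library, the TPM table on log2(TPM + 1), a model of only the 2 groups compared, the replicate number as a block, and each library left out. Genes of the second table alone were not tested. The list of amino acid transport is not reported singly here.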

Additional observations from a re-analysis of the deposited data

How the results depend on the processing

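Over 219 pairs of one of the 10 genes and an alternative, LXR-DKO against WT kept its direction in all 219. In 204 the log2 fold change moved by less than the spread between replicates. The genes were chosen on this contrast, so a kept direction is no test of them. Leaving out a library of another group, or keeping only the 2 groups compared, cannot move these log2 fold changes. On log2(TPM + 1), where the added 1 weighs more on low values, the changes of Kcnj14 (4.04), Ush1c (1.90) and Slc1a5 (-0.49) were smaller. Counts of calls moved more. In Mertk-KO against Macrophage-depleted, 2 of the 10 genes were called, 0 with only these 2 groups in the model, 1 with library weights, and 1 to 3 with a library left out. Within 5 Mb of Nr1h2, LXR-DKO against WT called 1 gene, 2 with no filter, 0 with the TPM table, 3 with only the 2 groups, 10 with library weights, and 0 to 2 with a library left out: 0 without Macrophage-depleted 3, any WT library, LXR-DKO 1 or LXR-DKO 2, and 2 without either Mertk-KO library. On the rest of the chromosome it called 8, then 5 with the TPM table, 18 with only the 2 groups, 61 with library weights, and 3 to 19 with a library left out: 3, 3 and 4 without WT 1, 2 and 3; 5, 5 and 4 without LXR-DKO 1, 2 and 3; 19 and 17 without Mertk-KO 1 and 2. Mertk-KO against WT called 6 within 5 Mb, 2 with a mean of at least 1 normalised count or no filter, 1 with the TPM table, 0 with only the 2 groups or with library weights, 3 with voom weights, and 0 to 22 with a library left out: 22 without Mertk-KO 2, 0 without any WT library, 3 without Macrophage-depleted 1 and 2 without LXR-DKO 1. Macrophage-depleted against WT called 0 there and 2 with library weights. Over all pathway and family lists, LXR target genes included, LXR-DKO against WT called 1 gene outside the 10, 0 with the TPM table, 3 with only the 2 groups, 10 with library weights, and 1 to 3 with a library left out. With Mertk-KO 2 or 1 left out, the lone library is assumed to vary like the other groups. The cause of these moves was not tested.

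With the replicate number as a block (replicate block), Mertk-KO against WT called 1 gene within 5 Mb of Nr1h2, LXR-DKO against WT called 9 on the rest of chromosome 7 and 3 in the lists, Rpl18 lost its call (adjusted p = 0.0806), and the other counts stayed at the values above. Nothing in the labels ties same-numbered libraries together. Their deviations from group means correlated between -0.0937 and 0.107, and whether they shared a batch was not tested. Windows of 2 and 10 Mb do not apply to the lists and were not run for them. Depth limits Klk1b22, Gm5900 and Gabrg3, which had at most 1 read in each WT library.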
